A study of Mus musculus with 8 samples.

Results

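Transcripts of the endocrine pancreas were examined in KPC tumors through 10 genes, Ins1, Ins2, Iapp, G6pc2, Gcg, Sst, Ppy, Pyy, Chga and Pcsk2, all of which were found among the 29968 genes of the count table. The genes were chosen on the measured levels of islet hormones, which had been seen to be high in 1 tumor, WT replicate 2, so the levels in that tumor are described here without a test. The tumors came from 4 WT mice of the C57BL/6J strain and 4 complement C3-null mice (C3-/-), all male and 12 weeks old. Every mouse received 250000 KPC FC1245 cells in 50 μL of PBS into the tail of the pancreas, and tumors were taken at the endpoint on day 14. KPC FC1245 is a single mouse pancreatic cancer line isolated from a tumor of a genetically engineered mouse, in which Cre expressed from the Pdx-1 promoter switches on mutant cancer alleles. The injected cells keep their own C3 gene in both groups, so C3 is deleted from the host and not from the cancer cells. Pancreas of sham-operated mice was not analysed here.

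Pancreatic islets are small clusters of hormone-secreting cells scattered through the enzyme-secreting acinar tissue of the pancreas. Beta cells make insulin, which lowers blood glucose, alpha cells make glucagon, which raises it, delta cells make somatostatin, which restrains both, and PP cells make pancreatic polypeptide. All of these hormones are made as larger precursors, cut by prohormone convertases and stored in dense-core granules together with granins such as chromogranin A. Mice carry a pair of insulin genes, Ins1 and Ins2, both of which are used by beta cells.

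Counts of read pairs per gene summed to between 13266029 and 23354212 per tumor, with WT replicate 2 the shallowest library. CPM here is the count scaled by the tumor's TMM-adjusted total, and 3 counts, taken as the floor for each library, corresponded to between 0.128 and 0.226 CPM. Intervals and floors given below cover counting error only, since read pairs without molecular identifiers are not independent molecules. The labelled tissue was checked against 8 genes of duct and tumor epithelium (Krt19, Krt8, Epcam and others), whose summed level ran from 4689 to 9202 CPM over the 8 tumors. C3, the gene deleted in the host, ran from 210 to 426 CPM in WT tumors and from 100.3 to 134 CPM in C3-/- tumors.

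The promoters of Ins1 and Iapp, hormone genes of beta cells, and of Gcg, that of alpha cells, are shown first because these genes stood high together in WT replicate 2. RefSeq promoter windows were found for 9 of the 10 genes, and Ins2 had none. Each sequence below is the 250 bases before the RefSeq start, 5′ to 3′ on the gene's strand, and each matched mm39 exactly at 1 place. The windows were Ins1 at chr19:52252485-52252734 (plus strand), Iapp at chr6:142243901-142244150 (plus strand) and Gcg at chr2:62313998-62314247 (minus strand). Those of Ins1 and Gcg lie upstream of the gene model of the deposited table, and that of Iapp overlaps the first 2 bases of its model. Capitals mark CATCTG, the core of an E-box known from insulin promoters, or its reverse complement CAGATG, and TATAAA or its reverse complement TTTATA.
Ins1: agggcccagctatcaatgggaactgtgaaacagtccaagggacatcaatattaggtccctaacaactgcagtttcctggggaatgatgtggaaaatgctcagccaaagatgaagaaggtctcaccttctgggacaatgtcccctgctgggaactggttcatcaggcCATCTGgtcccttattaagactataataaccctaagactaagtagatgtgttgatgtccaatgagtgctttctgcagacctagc
Iapp: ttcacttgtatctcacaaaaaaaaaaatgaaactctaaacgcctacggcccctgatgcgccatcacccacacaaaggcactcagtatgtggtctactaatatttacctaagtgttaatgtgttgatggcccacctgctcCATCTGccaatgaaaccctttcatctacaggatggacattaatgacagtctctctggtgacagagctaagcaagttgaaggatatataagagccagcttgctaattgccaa
Gcg: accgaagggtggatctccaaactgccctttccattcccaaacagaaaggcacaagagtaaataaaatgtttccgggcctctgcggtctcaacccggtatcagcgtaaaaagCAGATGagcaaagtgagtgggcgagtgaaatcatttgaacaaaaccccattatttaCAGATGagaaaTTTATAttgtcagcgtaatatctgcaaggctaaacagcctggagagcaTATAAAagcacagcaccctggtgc
On either strand, CATCTG was present in windows of 4 of the 9 genes (Ins1, Gcg, Iapp and G6pc2) and in 14.4% of all 32851 RefSeq windows of the same length. In Ins1 it began 84 bases before the start, in Iapp 111 bases before it, and in Gcg at 139 and 83 bases on the other strand. TGACGTCA, the cAMP response element, was present in the Sst window alone among the 9 genes, 48 bases before the RefSeq start, and in 1.55% of all windows. The Sst window overlaps the first 114 bases of the deposited gene model, and the match lies inside that model. TATAAA was present in Gcg and Ppy and in 12.4% of all windows. A match describes these letters and not a bound site.

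The beta cell genes carried the highest hormone counts, nearly all of them in 1 tumor. Ins2 (chromosome 7 of mm39, from 142232393 to 142297118), which encodes insulin, had 1, 425, 1 and 0 counts in the WT tumors, in the order of replicates 1 to 4 as in all such series here, and 21, 7, 0 and 10 in the C3-/- tumors. Ins1 (chromosome 19, from 52252735 to 52253914), the other insulin gene, had 0, 194, 2 and 0 counts in WT tumors and 4, 1, 0 and 7 in C3-/- tumors. Iapp (chromosome 6, from 142244149 to 142249687), which encodes islet amyloid polypeptide, a hormone secreted with insulin, had 2, 199, 0 and 0 counts in WT tumors and 4, 0, 0 and 8 in C3-/- tumors. WT replicate 2 stood above every other tumor for all of these genes, and the other WT tumors were at or near 0. Its level of Ins2 was 32.0 CPM against 0.983 CPM in the highest other tumor, C3-/- replicate 1, which was 32.6-fold higher with an exact 95% interval of 21.0 to 53.2 from counting. Ins1 reached 14.6 CPM, 38.2-fold (18.2 to 96.3) above C3-/- replicate 4, and Iapp 14.995 CPM, 34.3-fold (17.1 to 80.5) above the same tumor. Ins1 and Ins2 are close paralogs between which read pairs can be split, and the Ins2 model spans 64726 bases but overlaps no other gene of the table. The Iapp model overlaps that of Slco1a5 on the opposite strand.

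G6pc2 (chromosome 2, from 69041417 to 69058185), the islet-specific glucose-6-phosphatase subunit, had 22 counts in WT replicate 2 and 0 in each of the other 7 tumors. With 3 counts per library as the floor, its level of 1.66 CPM in WT replicate 2 was at least 7.33-fold higher than in any other tumor. G6pc2 was the only one of the 10 genes without a count outside WT replicate 2.

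Alpha, delta and PP cell hormones stood out in the same tumor at lower levels. Gcg (chromosome 2, from 62304874 to 62313994), which encodes glucagon, had 0, 134, 0 and 0 counts in WT tumors and 5, 2, 1 and 9 in C3-/- tumors. Its 10.1 CPM in WT replicate 2 was 20.5-fold (10.5 to 45.8) above C3-/- replicate 4. All 4 C3-/- tumors had at least 1 count where WT replicates 1, 3 and 4 had 0. The 2 and 1 counts of C3-/- replicates 2 and 3 lie under the floor of 3 counts and were not told apart from 0. Sst (chromosome 16, from 23708323 to 23709708), which encodes somatostatin, had 8 counts in WT replicate 2, 2 in C3-/- replicate 1 and 0 elsewhere, a ratio of 6.44 (1.29 to 62.3) that rests on few counts.

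Ppy and Pyy encode pancreatic polypeptide and peptide YY, related hormones whose genes lie on the minus strand of chromosome 11, with 5356 bases between them. Ppy (from 101990756 to 101992145) had 21 counts in WT replicate 2, 6 in C3-/- replicate 4 and 0 in the other 6 tumors. Pyy (from 101997502 to 101998658) had 0, 52, 2 and 0 counts in WT tumors and 0, 4, 0 and 4 in C3-/- tumors. WT replicate 2 was again highest for both, at 1.58 CPM for Ppy, 4.82-fold (1.88 to 14.6) above C3-/- replicate 4, and at 3.92 CPM for Pyy, 17.5-fold (6.44 to 66.6) above C3-/- replicate 2.

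The granule genes divided into one seen in every tumor and one seen in few. Chga (chromosome 12, from 102521228 to 102531287), which encodes chromogranin A, had 5, 303, 36 and 16 counts in WT tumors and 29, 11, 8 and 42 in C3-/- tumors. It was the only one of the 10 genes with a count in all 8 tumors and the only one to pass the filter on low counts. Its 22.8 CPM in WT replicate 2 was 8.42-fold (5.95 to 12.2) above WT replicate 3, a tumor with 5 counts over the 7 hormone genes. Pcsk2 (chromosome 2, from 143388076 to 143658205), the prohormone convertase that processes proglucagon and takes part in proinsulin processing, had 0, 36, 0 and 8 counts in WT tumors and 4, 0, 0 and 0 in C3-/- tumors. Its ratio of WT replicate 2 to WT replicate 4 was 7.97 (3.64 to 19.8).

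**Figure D1:**
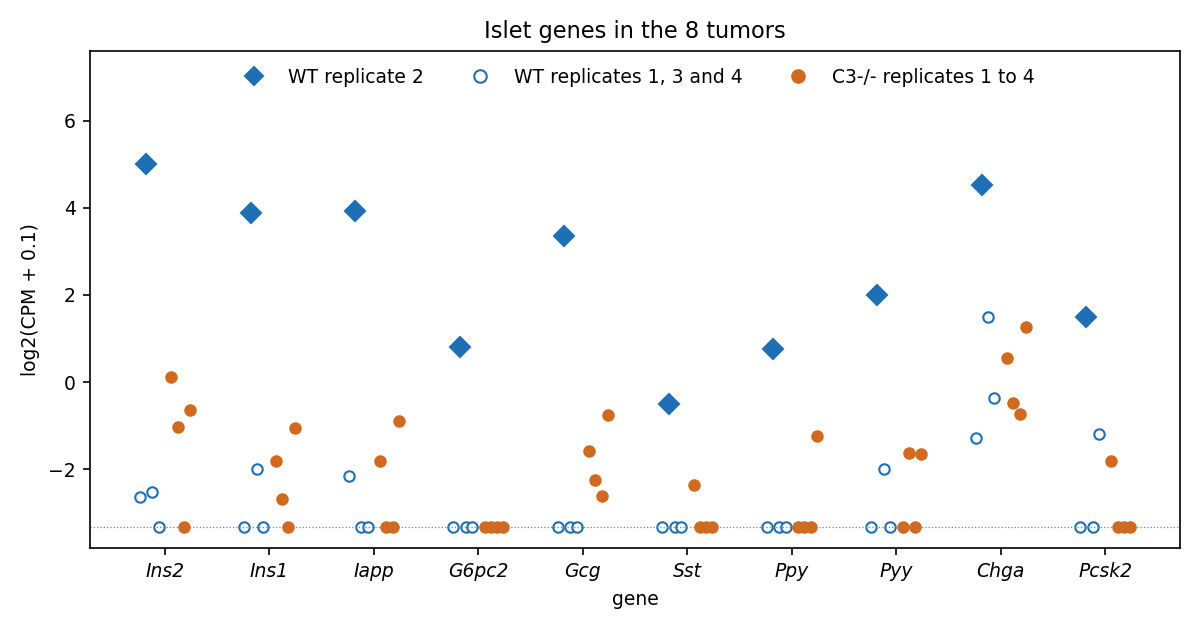
Level of each of the 10 islet genes in each tumor, as log2(CPM + 0.1), with WT replicate 2 as a filled diamond, the other WT tumors as open circles and C3-/- tumors as filled circles. The dotted line marks a count of 0. WT replicate 2 is highest for all 10 genes, and 40 of the 70 values of the other 7 tumors lie at 0.

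Summed over the 10 genes, WT replicate 2 reached 105 CPM and the other tumors between 0.498 and 4.70 CPM, a ratio of 22.3 to the highest of them (17.96 to 28.1 from counting). Of the 10 genes, 9 had at least 10 counts in WT replicate 2 and lay there at least 4-fold above every other tumor, as did 0.308% of the 15912 genes with that many counts in the tumor. The rule chose the genes for this pattern, so that count is given as a description. Just outside the threshold of 10 counts was Sst with 8, and just inside both thresholds was Ppy, with 21 counts and a ratio of 4.82. In bulk tumor RNA, more cells of a type and more RNA per cell cannot be told apart.

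Per kilobase of the deposited gene length, which allows genes to be compared, Ins2 was the most abundant of the 10 in WT replicate 2, at 24.4 CPM per kb (22.1 to 26.8, exact 95% Poisson interval). Iapp followed at 15.4 (13.3 to 17.7) and Ins1 at 13.8 (11.9 to 15.8), and these did not differ beyond counting error. Chga at 8.28 (7.38 to 9.27), Gcg at 6.76 (5.66 to 8.005) and Pyy at 6.21 (4.64 to 8.14) had overlapping intervals as neighbours. Ppy was at 3.16 (1.96 to 4.84), and its interval overlapped that of Pyy. G6pc2 at 0.840 (0.526 to 1.27) and Sst at 0.836 (0.361 to 1.65) were alike within counting, and Pcsk2 was lowest at 0.343 (0.240 to 0.475). The somatostatin level was thus low beside that of the other hormones in this tumor.

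The makeup of the hormone counts was compared between the tumors that had at least 10 of them. Over the 7 hormone genes (Ins1, Ins2, Iapp, Gcg, Sst, Ppy and Pyy), WT replicate 2 had 1033 counts, C3-/- replicate 4 had 44, C3-/- replicate 1 had 36 and C3-/- replicate 2 had 14. WT replicates 1 and 3 had 3 and 5 counts, C3-/- replicate 3 had 1 and WT replicate 4 had 0. Insulin transcripts made up 59.9% of the hormone counts of WT replicate 2 (exact Clopper-Pearson 95% interval 56.9 to 62.9). The share was 69.4% (51.9 to 83.7) in C3-/- replicate 1 and 57.1% (28.9 to 82.3) in C3-/- replicate 2, which overlap it, and 38.6% (24.4 to 54.5) in C3-/- replicate 4, which does not. Within insulin, Ins1 held 31.3% (27.7 to 35.2) in WT replicate 2, 16.0% (4.54 to 36.1) in C3-/- replicate 1 and 41.2% (18.4 to 67.1) in C3-/- replicate 4, with all intervals overlapping.

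Glucagon beside insulin did not separate the tumors either, with Gcg at 17.8% of Ins1, Ins2 and Gcg counts in WT replicate 2 (15.1 to 20.7), 16.7% in C3-/- replicate 1 (5.64 to 34.7), 20% in C3-/- replicate 2 (2.52 to 55.6) and 34.6% in C3-/- replicate 4 (17.2 to 55.7). For the PP cell hormones, 2 of 6 comparisons of a C3-/- tumor with WT replicate 2 had intervals apart, each in a different tumor. Ppy made up 2.03% of the hormone counts in WT replicate 2 (1.26 to 3.09) and 13.6% in C3-/- replicate 4 (5.17 to 27.4), and Pyy 5.03% (3.78 to 6.55) and 28.6% in C3-/- replicate 2 (8.39 to 58.1). The other intervals overlapped those of WT replicate 2, with Pyy at 9.09% in C3-/- replicate 4 (2.53 to 21.7), Pyy at 0 in C3-/- replicate 1 (0 to 9.74) and Ppy at 0 in C3-/- replicates 1 (0 to 9.74) and 2 (0 to 23.2). The 2 shares that stood apart rest on 6 counts of Ppy and 4 of Pyy and compare libraries, not genotypes.

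**Figure D2:**
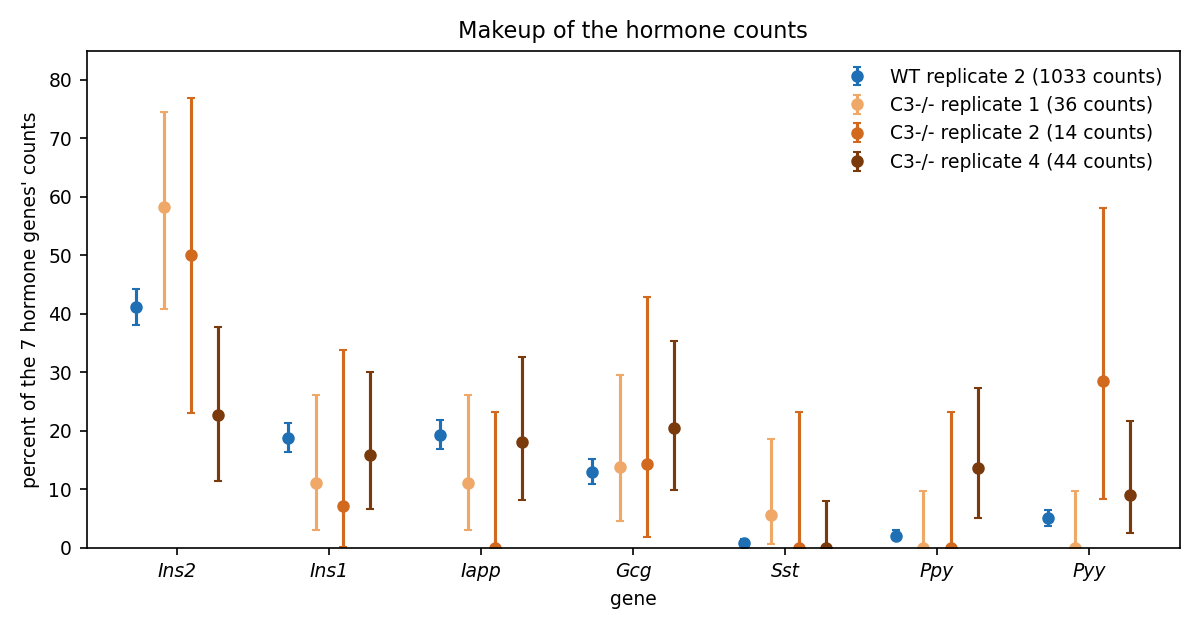
Share of each hormone gene among the counts of the 7 hormone genes, in percent, for the 4 tumors with at least 10 such counts. Points are shares and bars exact 95% binomial intervals. Ins2 holds 41.1% in WT replicate 2 and 22.7% in C3-/- replicate 4, and the intervals of the C3-/- tumors are wide because they rest on 14 to 44 counts.

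Other genes of islet cells were read from lists of beta, alpha, delta, PP, epsilon and pan-endocrine genes, of which 42 outside the 10 were in the table. WT replicate 2 had a count for 41 of the 42, and the other tumors for 31 to 39. In WT replicate 2, 16 of the 42 had their highest level, and the share of all genes that did so was not counted. Of all 15912 genes with at least 10 counts there, 0.308% lay at least 4-fold above every other tumor. Of the 42, 4 met both of these thresholds. All 4 belong to the contents of secretory granules. Chgb, which encodes chromogranin B, had 54 counts in WT replicate 2 and 0 to 4 in the others, a ratio of 23.9 (8.82 to 90.9). Scg2, which encodes secretogranin II, had 54 counts against 0 to 12, a ratio of 7.25 (3.83 to 14.9). Pcsk1n, which encodes the prohormone convertase inhibitor proSAAS, had 40 against 0 to 5, a ratio of 11.0 (4.35 to 35.8), and Scg3, a granin that helps sort granule cargo, had 16 against 0 to 2, a ratio of 11.0 (2.59 to 98.8).

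The transcription factors and channels of islet cells did not follow the hormones. Pdx1, a regulator of pancreas development and of insulin, had 393 to 893 counts in every tumor, with 29.6 CPM in WT replicate 2 and 29.3 to 42.1 CPM in the others. Pax6, a regulator of islet cell development, ran from 4.82 to 12.4 CPM in the other tumors with 8.29 CPM in WT replicate 2. Kcnj11 and Abcc8, the pore and receptor subunits of the ATP-sensitive potassium channel of beta cells, lay within the range of the other tumors, and Kcnj11 was highest in WT replicate 4, the tumor with the most skeletal muscle counts. These genes were thus counted throughout the series at levels that the hormone-rich tumor did not exceed.

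Hormone processing showed the same division. Cpe, the carboxypeptidase that trims cut hormone precursors, had 579 CPM in WT replicate 2 and 468 to 691 CPM in the others, and Pam, which amidates peptides, had 230 CPM and 211 to 246 CPM. Pcsk1, the other prohormone convertase of islets, had 0 to 4 counts in every tumor. Slc30a8, the zinc transporter of insulin granules, had 2 counts in WT replicate 2 and 0 elsewhere, and Scgn, which encodes the calcium-binding secretagogin, had 8 and 0. Neurog3, which marks endocrine progenitors, had 3 counts against 0, at the floor.

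**Figure D3:**
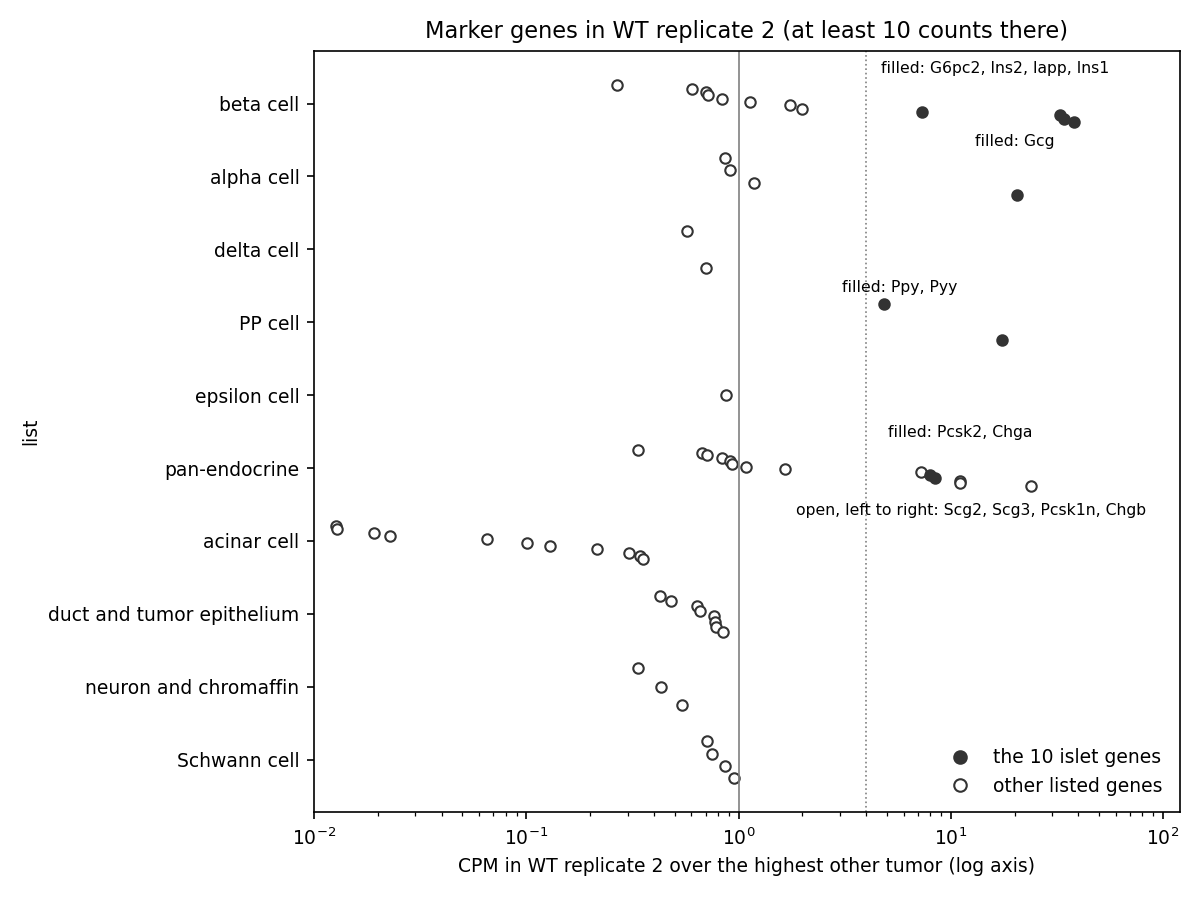
Level in WT replicate 2 over that of the highest other tumor, on a log axis, for listed genes with at least 10 counts in WT replicate 2. Filled circles are 9 of the 10 islet genes, Sst having only 8 counts (that of G6pc2 is a lower bound against a floor of 3 counts) and open circles other listed genes, and lines mark 1-fold and 4-fold. Chgb, Scg2, Scg3 and Pcsk1n are the open circles above 4-fold, and acinar genes lie below 1-fold.

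Genes of neighbouring tissues were set beside the hormones in each tumor. The 15 acinar genes, among them the digestive enzyme genes Ctrb1, Prss2 and Cela1, summed to 9506, 2302, 4812 and 4803 counts in the WT tumors and to 41726, 1272, 729 and 813 in the C3-/- tumors. Per 1000 acinar counts there were 449 hormone counts in WT replicate 2, 54.1 in C3-/- replicate 4, 11.0 in C3-/- replicate 2 and at most 1.37 in the other 5 tumors. WT replicate 2 had the lowest acinar level of the WT tumors, and the tumor richest in acinar counts, C3-/- replicate 1, had 0.863 hormone counts per 1000. The order of the tumors by hormone counts was therefore not their order by acinar counts.

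**Figure D4:**
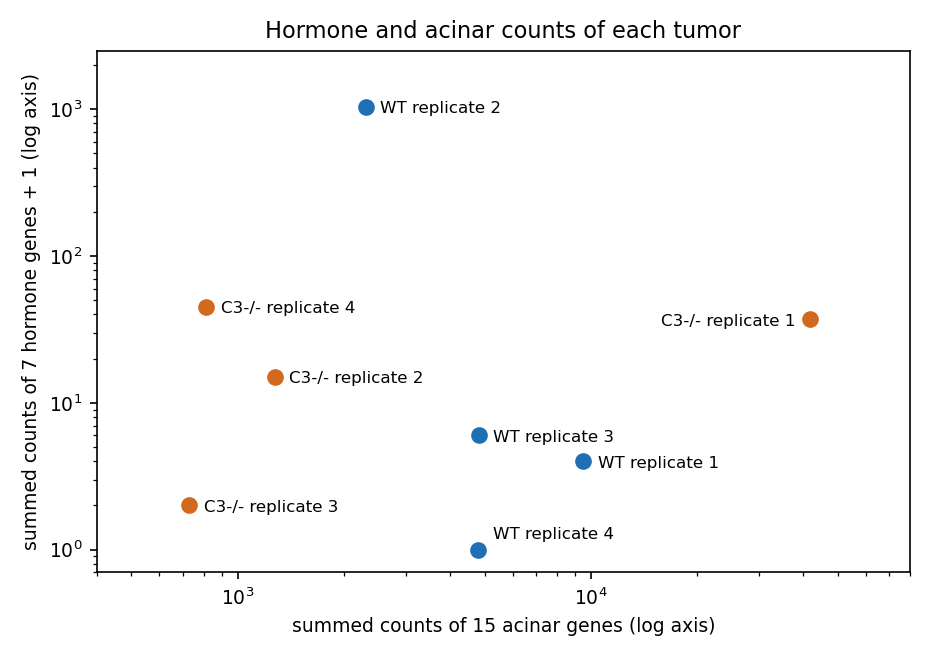
Summed counts of the 7 hormone genes plus 1 against summed counts of 15 acinar genes, both on log axes, for each tumor, with WT in blue and C3-/- in orange. WT replicate 2 has 1033 hormone and 2302 acinar counts, and C3-/- replicate 1 has 36 and 41726.

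Nerve and chromaffin cells also use granins. Of the 9 listed neuron and chromaffin genes, 7 were in the table, and their summed level was 35.9 CPM in WT replicate 2 and 44.7 to 91.3 CPM in the others. Most of the sum in WT replicate 2 came from Tubb3 (23.5 CPM) and Stmn2 (10.8 CPM). The defining chromaffin genes were at or near 0, with at most 2 counts of Th, 3 of Dbh and 5 of Pnmt in any tumor. The 10 gut enteroendocrine and intestinal genes, 9 of them in the table, summed to 104 CPM in WT replicate 2 and 88.5 to 146 CPM in the others, with Cck at 0 and Sct at 0 in WT replicate 2. Most of that 104 CPM came from Vil1 (57.0 CPM), Lgr5 (35.6 CPM) and Cdx2 (8.97 CPM). Both sums thus say little on the rarer genes of their lists. The 6 skeletal muscle genes had 27 counts in WT replicate 2 and 14 to 70697 in the others.

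Genes known from adipocytes did stand high in WT replicate 2. Over all genes outside the 10 with at least 10 counts there, the 15 with the largest rise over the highest other tumor held 4 granule genes (Chgb, Pcsk1n, Scg2 and Scg3) and, at the top, Pck1, the gluconeogenic enzyme gene also used in fat, with 749 counts against 60 in WT replicate 4. Plin1, which encodes a coat protein of fat droplets, had 371 counts against at most 52, Lep, which encodes leptin, 35 against at most 5, and Adig, which encodes adipogenin, 70 against at most 18. The remaining genes were Tshr, Cyp2e1, Cdo1, B3galt2, Ctcflos, Acsm5 and Slc7a10. A list of 12 adipocyte genes, written after these values were seen, had its highest level in WT replicate 2 for 12 of 12 genes. That list takes in Pck1, Plin1, Cyp2e1, Lep, Slc7a10 and Adig from the 15 above. Their place in WT replicate 2 was known beforehand, so the list is a description and no test. Its sum was 985 CPM there, 88.4 to 174 CPM in the other WT tumors and 61.4 to 272 CPM in C3-/- tumors. Adipoq, its defining gene, had 595 counts in WT replicate 2 and 3 to 194 elsewhere. The part of adipose, acinar or nerve transcripts in the islet levels was not tested.

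The 5 genes outside the 10 whose log2(CPM + 0.1) ran most like the mean of the 10 over the 8 tumors were Fam13a, Prrg3, A530013C23Rik, Slc1a3 and S1pr3, out of 16609 compared. Their Pearson correlations lay between 0.946 and 0.964 and rest on WT replicate 2, in which Slc1a3, a glutamate transporter gene, had 9.80 CPM against 0.693 to 1.68 CPM in the others. None of the 5 was on an islet list.

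Whether deletion of C3 from the host changed islet transcripts in the tumors was asked with edgeR's quasi-likelihood test over all genes. Of the 10 genes, only Chga passed the filter and was tested among 16610 genes. The mean level of Chga was 6.63 ± 10.9 CPM over the WT group (SD, n = 4) and 1.19 ± 0.827 CPM over the C3-/- group (SD, n = 4). By edgeR the log2 fold change, C3-/- over WT, was -2.44 with an SE of 1.14 and an adjusted p of 0.971. Without WT replicate 2, the WT mean was 1.23 ± 1.29 CPM (SD, n = 3), and edgeR gave a log2 difference of -0.01 with an SE of 0.80 and an adjusted p of 0.998. The spread among WT tumors was larger than the difference between the genotypes, and without that tumor the means were nearly equal. Of the 10 genes, 0 were called at an adjusted p below 0.05, as were 0% of all 16610 genes tested, of which 848 had an unadjusted p below 0.05.

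The other 9 genes were read from the fit without a filter on 29968 genes, in which 0% of genes and 0 of the 10 were called. Their log2 fold changes with all 8 tumors ran from -5.82 for G6pc2 to -2.11 for Ppy, lower in C3-/- tumors, with adjusted p between 0.810 and 0.811 in edgeR. The value of G6pc2, at 0 in all C3-/- tumors, depends on the prior count. Over the 10 genes the median was -3.53, or -3.24 with G6pc2 put at its bound of -1.33 from 3 counts per library, and that of all genes was 0.01. These values take in the tumor for which the genes were chosen and are given as a description, as is the count of 8 of the 10 with an unadjusted p below 0.05, which 1339 of the 29968 genes had. DESeq2 called 16 genes (0.0534%) and 0 of the 10, of which Chga alone had an unadjusted p below 0.05, as did 1189 genes in all, and it gave no p for Ins1, Ins2, Gcg, Iapp and Pyy.

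Without WT replicate 2 the sign of the fitted log2 fold change turned for all 7 hormones, and none was called. The genes were chosen for a high level in that WT tumor, so leaving it out raises these values. The turn is therefore a description and no test of genotype. Ins2 had a value of 3.39 (SE 1.27), on 38 counts in 4 C3-/- tumors against 2 in 3 WT tumors. The 38 counts were spread unevenly, with 21, 7, 0 and 10 in C3-/- replicates 1 to 4. Gcg had a value of 5.07 (SE 1.72), on 17 counts against 0, with 5, 2, 1 and 9 in the same tumors. Ins2 and Gcg both had an adjusted p of 0.853 in edgeR, over 29828 genes of which 0% were called. Their 95% intervals left out 0, from 0.677 to 6.10 for Ins2 and from 1.34 to 8.81 for Gcg. An unadjusted p below 0.05 in edgeR was held by 2 of the 9 genes fitted and by 1256 of the 29828. The fold changes of Gcg, Sst and Ppy, for which those 3 WT tumors had 0 counts, depend on how a count of 0 is offset. The 95% intervals of the fit covered 0 for Ins1 (1.73, from -1.61 to 5.07), Iapp (1.81, from -1.72 to 5.35), Pyy (1.22, from -2.39 to 4.83), Sst (2.23, from -1.95 to 6.40) and Ppy (3.68, from -1.20 to 8.56). Pcsk2 was at -1.21 (SE 1.61), and G6pc2 had no count left to fit. With all 8 tumors, 0 of the 10 genes had C3-/- values wholly above or below the WT values, where 3.73% of the 16610 genes past the filter and 2.92% of all 29968 did.

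**Figure D5:**
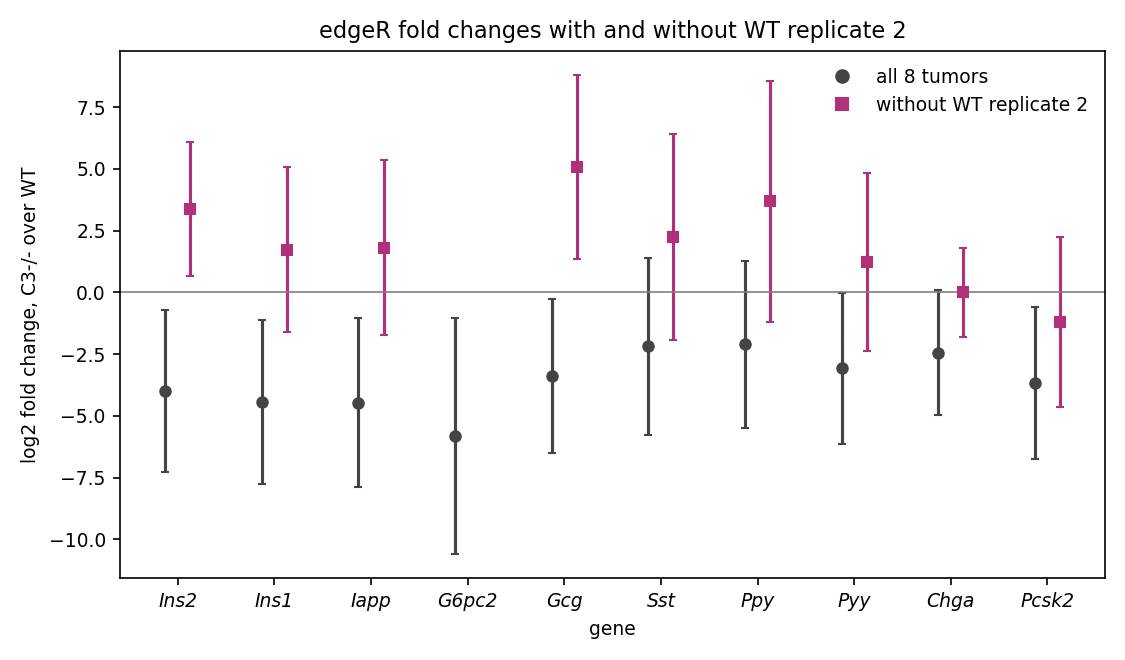
log2 fold change of each gene, C3-/- over WT, by edgeR with all 8 tumors (circles) and without WT replicate 2 (squares). Bars are 95% confidence intervals of the fit, Chga is from the fit with the low-count filter and the others from the fit without it. Circles lie below 0 for all 10 genes and squares above 0 for 7 of the 9 that could be fitted, and the values of G6pc2, and of Gcg, Sst and Ppy without WT replicate 2, depend on the offset for counts of 0.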

How the data were processed

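RNA of 4 WT and 4 C3-/- KPC tumors was sequenced from poly-A selected libraries. The authors aligned read pairs to mm39 with STAR and counted them per gene with HTSeq (the submitters' processing notes name HISAT2 2.0.5 and DESeq2 1.20.0), and the raw counts they deposited were used here. Annotation and strand setting are not given in the sources used here. The same table holds size-factor-normalized counts (a signal deposited by the authors), their FPKM values, and the authors' log2 fold changes and p-values from their comparison, none of which were used.

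Genotypes were compared with edgeR 4.0.16 in R 4.3.3 (filterByExpr with a minimum count of 10, TMM, glmQLFit and glmQLFTest, Benjamini-Hochberg adjustment). SE is the log2 fold change over the square root of F. Of the 10 genes, 9 did not pass the filter and were read from the fit without it. Alternatives were DESeq2 1.42.0, its size factors in edgeR, no filter, a replicate block, and each tumor left out. The edgeR and DESeq2 tests were checked on simulated data. The lowest chi-square per gene over the 28 pairs of tumors was 14.96, so no library was a repeat of another.

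The 10 genes and the lists were chosen with earlier results of these data known. Genes were named by these rules: the 10 genes, listed genes with at least 10 counts and 4-fold over every other tumor in WT replicate 2, the 15 genes that rose most there, and the 5 most alike in pattern. Other listed genes with their values, and the adipocyte list, were chosen after the values were seen. Sequences are from RefSeq (GRCm38.p6 table) and were placed on mm39 by exact match. Some listed genes are not reported here.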

Additional observations from a re-analysis of the deposited data

Results flagged for a closer look

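Within each genotype, a tumor was set apart where its gap to the nearest of the other 3 exceeded Dixon's 95% critical share of the whole range of the 4. This was so in 13 of the 19 groups of 4 tumors that had any count. Chance sets apart about 1 in 20 groups, but that share is no measure here, because 10 of the 13 restate the choice of genes high in WT replicate 2 and the other 3 are single values above counts of 0, which the rule always sets apart. In WT replicate 2 the levels were 32.0 CPM for Ins2 (next WT tumor 0.0753), 14.6 CPM for Ins1 (0.151), 14.995 CPM for Iapp (0.124), 10.1 CPM for Gcg (0), 3.92 CPM for Pyy (0.151), 1.58 CPM for Ppy (0), 0.603 CPM for Sst (0), 1.66 CPM for G6pc2 (0), 22.8 CPM for Chga (2.71) and 2.71 CPM for Pcsk2 (0.340). Those in C3-/- tumors were Ppy at 0.328 CPM in C3-/- replicate 4 (6 counts), Pcsk2 at 0.187 CPM in C3-/- replicate 1 (4 counts) and Sst at 0.0936 CPM in C3-/- replicate 1 (2 counts).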

How the results depend on the processing

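Leaving out WT replicate 2 turned the log2 fold change of 7 genes, to 1.73 for Ins1, 3.39 for Ins2, 5.07 for Gcg, 2.23 for Sst, 3.68 for Ppy, 1.81 for Iapp and 1.22 for Pyy, and over the tumors left out the lowest values were -5.25, -4.60, -4.05, -4.33, -5.74, -5.58 and -3.63 in the same order. The genes were chosen for a high level in WT replicate 2, so this turn is no test of genotype. Without that tumor Pcsk2 was at -1.21 and Chga was left without a direction at -0.01. All 101 values of the 10 genes under the other alternatives kept their direction, and none was called, though DESeq2 gave no adjusted p for 6 of the genes. The number of the 10 genes called was 0 in every alternative run. Over all genes past the filter, 0 were called, and 0 to 4 with a tumor left out, the higher number without C3-/- replicate 1. Without the filter, 0 were called, 16 with DESeq2, 21 without C3-/- replicate 1 and 1 without WT replicate 3. With the replicate number as a block, 0 genes were called past the filter and 3 without it, none of them among the 10. The block moved the log2 fold change of Chga to -0.89, Ins1 to -1.55, Ins2 to -0.42, Gcg to -0.15, Sst to -1.21, Ppy to -0.90, Iapp to -1.57, Pyy to -1.80, Pcsk2 to -2.89 and G6pc2 to -5.18, and the median of the 10 from -3.53 to -1.38. The labels give replicate numbers and do not say whether equal numbers mark pairs. Deviations of same-numbered tumors correlated at -0.03, 0.49, -0.36 and 0.59, and 4 of the 8 tumors correlated best with their own number. These mixed values do not decide whether tumors were paired. The ratio of summed levels was 15.5 without Ins1 and Ins2, and the shares in WT replicate 2 per kilobase were 36.1% for Ins1, 15.04% for Gcg and 28.7% for Iapp (24.3% of Iapp and insulin counts without that scaling). Outside WT replicate 2, 40 of the 70 values were counts of 0, so differences among those tumors under the floor of 3 counts were not detectable.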

Other observations

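Acinar genes did not all stand in the same order to the other WT tumors in WT replicate 2. WT replicate 2 had 1071 counts of Ctrb1, 567 of Cela1 and 411 of Prss2, where the other WT tumors had 1308 to 2656, 1281 to 1710 and 380 to 782. It had 0 of the lipase gene Pnlip, 5 of Ctrl and 13 of Cela2a, where the other WT tumors had 147 to 653, 143 to 348 and 148 to 644. C3-/- replicates 2 to 4 had 989, 603 and 648 counts of Cela1, 129, 42 and 37 of Ctrb1 and 24, 8 and 15 of Prss2, with 2, 0 and 0 of Pnlip, 18, 34 and 42 of Ctrl and 12, 0 and 4 of Cela2a. Ptf1a, a regulator of acinar cells, had 7 counts in WT replicate 2 and 0 to 2 in the others. These genes were picked after their values were seen.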
